A study of Mus musculus with 10 samples.

Results

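The genes described here encode the extracellular matrix of the liver and the proteins of hepatic stellate cells, the pericytes of the sinusoid that store vitamin A and make most of the scar collagen of an injured liver. They are the 38 named genes Col1a1, Col1a2, Col3a1, Col5a1, Col5a2, Col6a1, Col6a2, Col6a3, Col14a1, Col4a1, Col4a2, Col15a1, Col18a1, Lamb1, Lamc3, Lum, Dcn, Bgn, Sparc, Spp1, Thbs1, Fn1, Ecm1, Eln, Fbn1, Lox, Loxl1, Mmp2, Timp1, Timp2, Timp3, Tgfb1, Hgf, Pdgfrb, Acta2, Des, Reln and Lrat. They were picked by symbol, and all 38 were found once among the 51911 genes of the table. RNA sequencing was done on 10 livers of C57BL/6 mice after 8 weeks of a high-fat diet (HFD), a diet that fattens the liver. In 5 of them Cpt1a was knocked out in the liver (genotype Cpt1a L-/-, called knockout below), and 5 were wild type on the same strain and diet. Cpt1a encodes the enzyme that admits long-chain fatty acids to mitochondria for oxidation. The sources used here do not give age, sex, the Cre line or whether the wild type mice carried floxed alleles, and they do not tie each library to a separate mouse. The p-values therefore rest on the variation among these libraries, which may be partly technical.

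Quiescent stellate cells hold retinyl esters made by LRAT and surround themselves with little matrix. On injury they turn into contractile cells that express smooth muscle actin (Acta2), respond to TGF-beta and PDGF, and lay down collagens of type I and III, which lysyl oxidases cross-link and metalloproteinases and their TIMP inhibitors turn over. Fibronectin, collagen XVIII and a share of the other matrix proteins are made by hepatocytes too, osteopontin (Spp1) by bile duct cells and macrophages, and basement membrane collagens by endothelial cells.

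The targeted gene matched the labels, with Cpt1a at 80.0 ± 9.19 CPM in knockout and 430.1 ± 85.8 CPM in wild type libraries (SD, n = 5 each), where CPM is the read count relative to library size after scaling between libraries with TMM factors. Total counts ran from 23990996 to 25200298 in knockout and from 20599099 to 26955958 in wild type libraries, so that 3 counts stood for 0.108 to 0.137 CPM in knockout and 0.106 to 0.169 CPM in wild type libraries, a limit that covers counting error only. The first principal component of all tested genes held 34.2% of the variance and did not follow genotype. Knockout replicates 1 and 4 and wild type replicates 3, 4 and 5 scored between 18.37 and 31.05 on it. Knockout replicates 2, 3 and 5 and wild type replicates 1 and 2 scored between -41.77 and -7.65. The mean level of the matrix genes, given below, was likewise higher in knockout replicate 4 and wild type replicates 3, 4 and 5 than in the other libraries, but knockout replicate 1 was not among the high ones. The part of this component in the genotype values was not tested.

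The livers were checked against the defining markers of their cell types. The hepatocyte gene Alb stood at 57828 ± 4676 CPM in knockout and 65324 ± 9504 CPM in wild type libraries. The stellate cell gene Colec11 was present in all 10 libraries, at 32.0 ± 6.57 CPM in knockout and 40.6 ± 9.81 CPM in wild type libraries. The mesothelial gene Msln and the adipocyte gene Adipoq were at or near 0, with 0.533 CPM as the highest value of either in any library.

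No matrix or stellate cell gene differed between the genotypes past the test over all genes. Of the 38 genes, 36 had enough counts to be tested, and 0 of them reached a Benjamini-Hochberg adjusted p under 0.05 in edgeR's quasi-likelihood test, where 0.132% of the 13619 genes tested did. DESeq2 called 0 of the 36 too, against 0.683% of all tested genes, and limma called 0. At an unadjusted edgeR p under 0.05 there were 8 of 36, all of them with lower knockout means, against 4.82% of all tested genes and 2.25% for lower knockout levels alone. DESeq2 had 9 of 36 at an unadjusted p under 0.05, against 5.33% of all tested genes. On the deposited TPM values (transcripts scaled by gene length and library), as log2(TPM + 1), 2 of 36 had an unadjusted limma p under 0.05, Lum and Spp1, against 3.66% of all tested genes, and the median difference was -0.15. The log2 fold change (knockout over wild type) was negative for 35 of 36, where 55.3% of all tested genes were negative. Their median was -0.34, and that of all tested genes was -0.02. The genotypes overlapped in all 36, while 1.05% of all tested genes showed no overlap. In whole tissue, fewer cells of a type and less RNA per cell cannot be told apart.

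**Figure D1:**
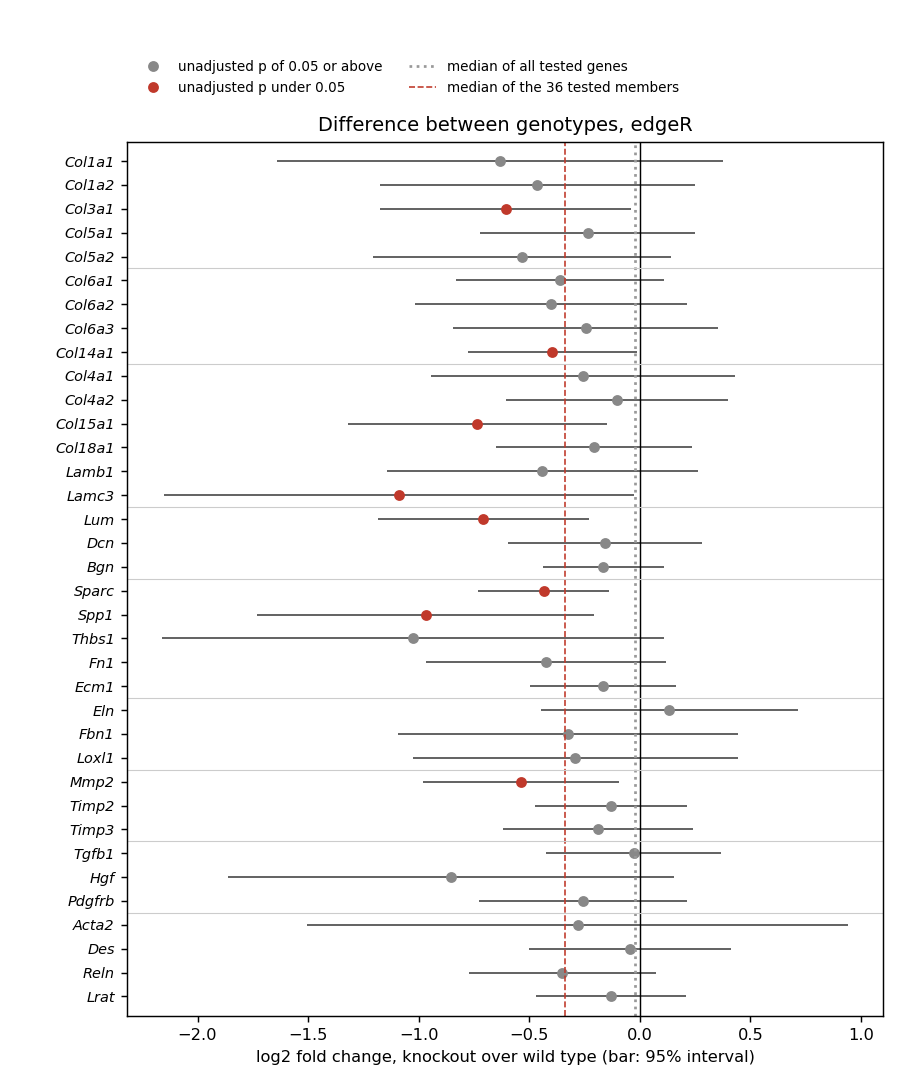
Log2 fold change of each of the 36 tested genes, knockout over wild type, with its 95% interval from edgeR (horizontal axis), in order of role down the page. The dashed line is their median (-0.34), the dotted line that of all 13619 tested genes (-0.02), and the 8 filled red points had an unadjusted p under 0.05.

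The intervals show how wide a difference the data leave. For 21 of the 36 genes the whole 95% interval of the log2 fold change lay between -1 and 1. For the other 15 it reached below -1, and for 0 of 36 did it reach above 1. The median SD of log2 CPM within a genotype was 0.43 over the 36 genes, against 0.29 over all tested genes, and 30 of the 36 were above that value. From the lowest to the highest library the matrix genes spanned 1.52-fold (Bgn) to 13.1-fold (Thbs1), with a median of 2.58-fold.

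That spread followed particular libraries. Averaged over the 36 genes, each as log2 CPM minus the gene's own mean, knockout replicates 1 to 5 stood at -0.15, -0.53, -0.35, 0.40 and -0.29. Wild type replicates 1 to 5 stood at -0.10, -0.32, 0.32, 0.52 and 0.50. Knockout replicate 4 was the highest knockout library for 28 of the 36 genes and lay above the wild type median for 20 of them. The lowest wild type library was replicate 1 or 2 for 33 of 36 genes, and replicate 2 lay below the knockout median for 23. The other knockout libraries (replicates 1, 2, 3 and 5) were all below the wild type median for 26 of 36 genes. With knockout replicate 4 left out, the median log2 fold change was -0.54 and 16 genes had an unadjusted edgeR p under 0.05, against 5.38% of all genes in that fit, and 0 passed the adjusted test. Without wild type replicate 5 the median was -0.20 and 4 genes had an unadjusted p under 0.05 (4.29% of all genes in that fit), with 0 passing the adjusted test.

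**Figure D2:**
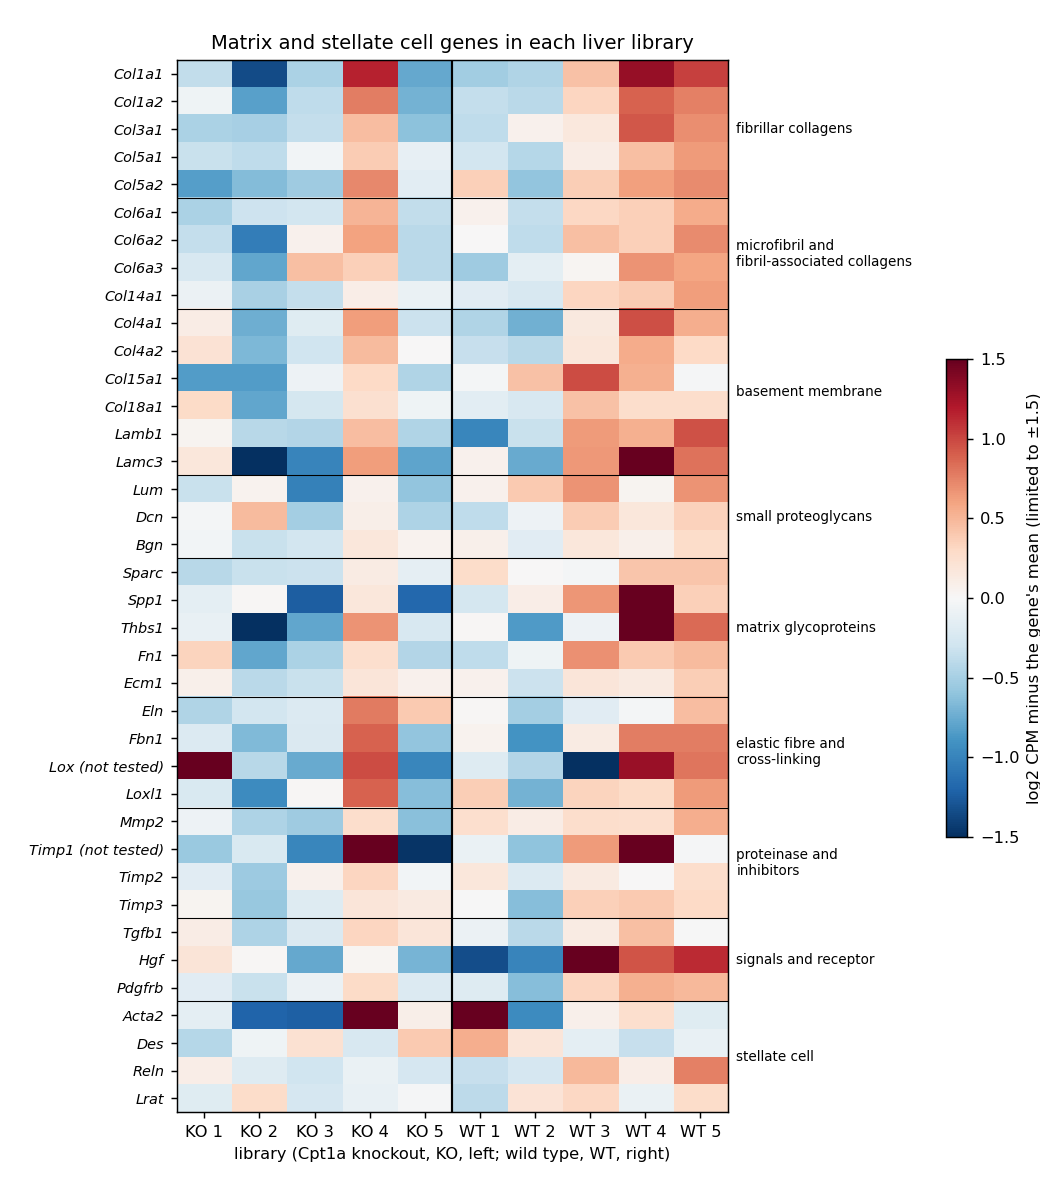
Log2 CPM of each of the 38 genes (rows, grouped by role) in each library (columns, knockout left, wild type right), minus the gene's mean over the 10 libraries. Red marks a level above the gene's mean and blue one below it, and knockout replicate 4 and wild type replicates 3, 4 and 5 are red for most collagens.

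Fibrillar collagens, the load-bearing fibres of scar, had 5 of 5 negative log2 fold changes (median -0.53). In the following, values are given for replicates 1 to 5 in order. Col1a1, the main chain of type I collagen, had 6.63, 3.38, 6.17, 19.1 and 5.03 CPM in knockout libraries, against 5.95, 6.24, 11.6, 21.1 and 17.4 CPM in wild type libraries. One knockout library thus stood with the 3 high wild type libraries, and the 2 low wild type libraries stood with the other knockouts. This gave a log2 fold change of -0.63 ± 0.46 (SE, adjusted p = 1.0 in edgeR), and without knockout replicate 4 it was -1.24 (adjusted p = 0.59). Its partner chain Col1a2 had 10.2, 6.12, 8.23, 18.2 and 6.54 CPM in knockout libraries, against 8.39, 8.10, 13.4, 19.9 and 18.1 CPM in wild type libraries, the same libraries being high (log2 fold change -0.46 ± 0.33, and -0.81 without knockout replicate 4). Col3a1, the type III chain of reticular fibres, had 21.8, 21.3, 23.5, 41.7 and 19.7 CPM in knockout libraries, against 23.2, 31.6, 33.6, 57.4 and 49.0 CPM in wild type libraries. Here 3 knockout libraries were below every wild type library, and replicate 4 was above 3 of 5. The Col3a1 log2 fold change was -0.61 ± 0.26 (SE, edgeR unadjusted p = 0.038, adjusted p = 0.995), and its difference in log2(TPM + 1) was -0.24 (limma unadjusted p = 0.481).

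Collagen V starts and limits the thickness of type I fibrils. Its chain Col5a2 had 1.82, 2.05, 2.24, 5.32 and 2.90 CPM in knockout libraries, against 4.13, 2.14, 4.16, 4.96 and 5.30 CPM in wild type libraries. Its knockout replicate 4 was the highest of all 10 libraries (log2 fold change -0.53 ± 0.31, edgeR adjusted p = 1.0), and without it the log2 fold change was -0.89. Col5a1 lay between 3.88 and 6.59 CPM in knockout and between 3.77 and 7.88 CPM in wild type libraries.

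Collagens that join fibrils to each other and to cells were closer between genotypes, with all 4 log2 fold changes between -0.40 and -0.24. Col14a1 coats fibrils and is known in mouse liver from stellate cells and portal fibroblasts. It had 35.8, 27.1, 29.4, 40.5 and 35.4 CPM in knockout libraries, against 33.7, 31.9, 47.3, 49.4 and 58.7 CPM in wild type libraries. All 5 knockout levels were below wild type replicates 3, 4 and 5, and they lay on both sides of replicates 1 and 2 (log2 fold change -0.39 ± 0.18, edgeR unadjusted p = 0.044, adjusted p = 1.0), and the difference in log2(TPM + 1) was -0.19 (limma unadjusted p = 0.455). Col6a1, a chain of the beaded collagen VI microfibril, had 4.97, 5.57, 5.70, 9.81 and 5.34 CPM in knockout libraries, against 7.24, 5.40, 8.58, 8.89 and 10.1 CPM in wild type libraries. Knockout replicate 4 again stood apart, and the other knockouts lay within a narrow band near the lowest wild type library (log2 fold change -0.36 ± 0.22, and -0.58 without knockout replicate 4). The chains Col6a2 and Col6a3 ran from 1.92 to 5.99 and from 3.38 to 7.90 CPM in knockout, and from 3.04 to 6.43 and from 4.0 to 9.21 CPM in wild type libraries.

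**Figure D3:**
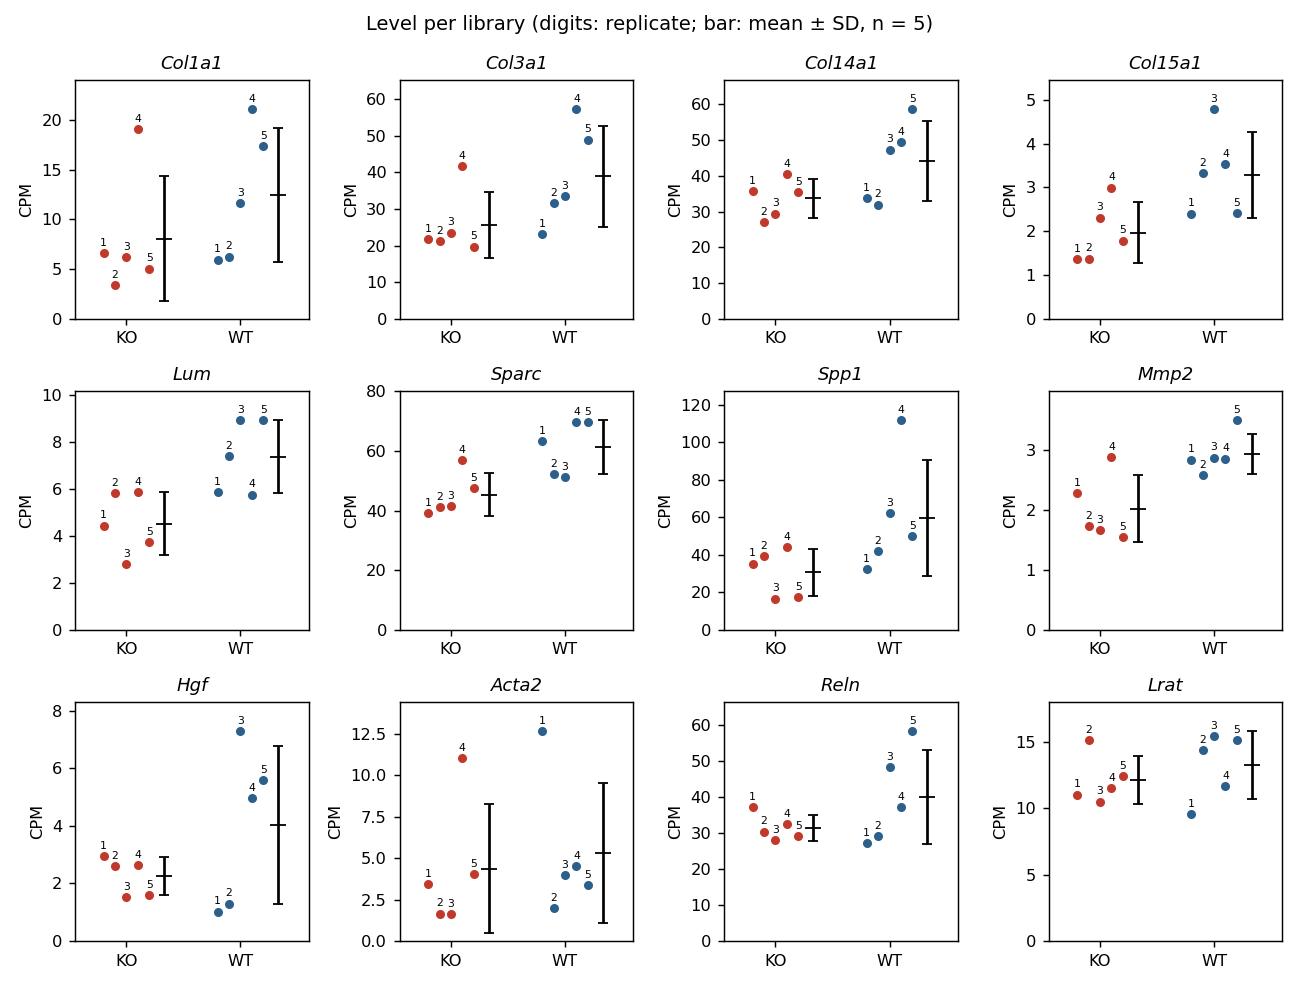
CPM per library for 12 of the genes (vertical axes start at 0), knockout left in red and wild type right in blue, with the replicate number at each point and the mean ± SD (n = 5) beside it. Knockout replicate 4 is the highest knockout point for 9 of the 12 genes, and all 12 pairs of groups overlap.

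Basement membrane genes had 6 of 6 negative log2 fold changes (median -0.35), led by 2 genes of low level. Col15a1, which ties basement membranes to the matrix below them, had 1.37, 1.37, 2.31, 3.0 and 1.78 CPM in knockout libraries, against 2.40, 3.32, 4.79, 3.54 and 2.40 CPM in wild type libraries. All but knockout replicate 4 were below the lowest wild type library (log2 fold change -0.74 ± 0.27, edgeR unadjusted p = 0.018, adjusted p = 0.803). On the deposited TPM values, as log2(TPM + 1), its difference was -0.14 (limma adjusted p = 1.0). Lamc3, the gamma 3 laminin chain, had 1.28, 0.365, 0.577, 1.76 and 0.658 CPM in knockout libraries, against 1.2, 0.675, 1.79, 4.14 and 2.01 CPM in wild type libraries. Much of that difference lay in wild type replicate 4, without which the log2 fold change of -1.09 ± 0.49 (edgeR unadjusted p = 0.045, adjusted p = 1.0) was -0.62.

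The network collagens Col4a1 and Col4a2 lie head to head on chromosome 8, their starts overlapping on opposite strands, and strand is not stated for these counts. Col4a1 ran from 18.2 to 46.9 CPM in knockout and from 18.3 to 59.4 CPM in wild type libraries, and Col4a2 from 14.2 to 31.4 and from 16.9 to 33.2 CPM. Their log2 fold changes were -0.26 ± 0.32 and -0.10 ± 0.23 (edgeR adjusted p = 1.0 for both), and both were slightly positive without wild type replicate 4, at 0.01 and 0.04, as was Col4a2 without knockout replicate 2, at 0.02. Col18a1, whose cleaved end is endostatin, was at 561 ± 154 CPM in knockout and 647 ± 129 CPM in wild type libraries. Lamb1, the beta 1 laminin chain, was at 4.46 ± 1.36 CPM in knockout and 6.03 ± 2.83 CPM in wild type libraries. The intervals of both log2 fold changes covered 0.

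Of the small leucine-rich proteoglycans that space collagen fibrils, Lum had the smallest p of all the genes described here. It had 4.43, 5.80, 2.78, 5.84 and 3.72 CPM in knockout libraries, against 5.86, 7.37, 8.91, 5.75 and 8.90 CPM in wild type libraries. The 2 highest knockouts lay level with the 2 lowest wild type libraries. The log2 fold change was -0.71 ± 0.22 with a 95% interval from -1.18 to -0.23 (edgeR unadjusted p = 0.0070, adjusted p = 0.581), and Lum stayed negative in all 22 alternatives, from -0.88 to -0.45. In the authors' deposited table its log2 fold change was -0.48 with a p-value of 0.0027. Bgn had 75, 61.2, 63.7, 87 and 80.4 CPM in knockout libraries, against 81.5, 68.3, 87.2, 81.4 and 93.1 CPM in wild type libraries, the narrowest range of the 36 genes. Dcn, the decorin gene, ran from 71.5 to 142 CPM in knockout and from 78.0 to 132 CPM in wild type libraries. Its highest library was knockout replicate 2, which was the lowest knockout for most of the other genes.

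The matrix glycoproteins had 5 of 5 negative log2 fold changes (median -0.44). Sparc, which binds collagen as it leaves the cell, had 39.2, 41.3, 41.6, 56.9 and 47.5 CPM in knockout libraries, against 63.2, 52.2, 51.2, 69.6 and 69.8 CPM in wild type libraries. Wild type replicate 1 was high for Sparc although it was low for Col1a1 and Col3a1. In CPM, knockout replicate 4 was the only knockout library inside the wild type range (log2 fold change -0.44 ± 0.14, edgeR unadjusted p = 0.0075, adjusted p = 0.590). On the deposited TPM values, only knockout replicate 2 (16.38 TPM) was outside the wild type range of 20.09 to 40.19 TPM. Spp1, which encodes osteopontin, had 35.3, 39.5, 16.6, 44.1 and 17.4 CPM in knockout libraries, against 32.5, 42.1, 62.2, 112 and 50.1 CPM in wild type libraries. The log2 fold change was -0.97 ± 0.35 (edgeR unadjusted p = 0.017, adjusted p = 0.797) and -0.61 without wild type replicate 4. That wild type library also had the highest level of the bile duct markers Krt19 (2.11 CPM) and Epcam (3.82 CPM). Krt19 lay between 0.465 and 1.12 CPM in knockout and between 0.394 and 1.38 CPM in the other wild type libraries. Epcam lay between 0.658 and 1.54 CPM in knockout and between 0.813 and 1.54 CPM in the other wild type libraries. The part of bile duct cells in the Spp1 value was not tested.

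Thbs1, an activator of latent TGF-beta, was at 1.65 ± 0.914 CPM in knockout and 3.33 ± 2.94 CPM in wild type libraries, with 8.36 CPM in wild type replicate 4. Fn1, the fibronectin gene, was at 843 ± 288 CPM in knockout and 1132 ± 318 CPM in wild type libraries (log2 fold change -0.42 ± 0.25, edgeR adjusted p = 1.0). Ecm1, which restrains the activation of latent TGF-beta in mouse liver, was at 81.7 ± 14.6 CPM in knockout and 91.6 ± 15.2 CPM in wild type libraries. The intervals of all 3 log2 fold changes covered 0.

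Elastic fibre and cross-linking genes were low in all livers and held the only positive value. Eln, the elastin gene, was at 2.35 ± 0.897 CPM in knockout and 2.14 ± 0.530 CPM in wild type libraries (log2 fold change 0.13 ± 0.27), and turned negative, at -0.10, without knockout replicate 4. Fbn1, the fibrillin of microfibrils, had 1.82, 1.32, 1.80, 3.90 and 1.39 CPM in knockout libraries, against 2.18, 1.12, 2.29, 3.57 and 3.57 CPM in wild type libraries. Loxl1, a lysyl oxidase of elastic fibres, had 1.49, 0.913, 1.77, 3.22 and 1.12 CPM in knockout libraries, against 2.27, 1.07, 2.21, 2.14 and 2.72 CPM in wild type libraries. For both genes knockout replicate 4 was the highest of all 10 libraries, and the log2 fold changes (-0.32 and -0.29) had intervals that covered 0. Lox, the founding lysyl oxidase, had too few reads to be tested, with counts of 22, 5, 5, 16 and 4 in knockout libraries and 6, 4, 2, 21 and 15 in wild type libraries.

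Among the genes of matrix turnover, Mmp2, the gelatinase of stellate cells, had the narrowest wild type range. It had 2.28, 1.74, 1.66, 2.88 and 1.55 CPM in knockout libraries, against 2.84, 2.59, 2.87, 2.86 and 3.50 CPM in wild type libraries. On this scale all but knockout replicate 4 were below every wild type library (log2 fold change -0.54 ± 0.20, edgeR unadjusted p = 0.021, adjusted p = 0.868). On the deposited TPM values they were not, with 1.49 and 1.51 TPM in knockout replicates 1 and 3 and 0.94 to 1.91 TPM in wild type libraries, and the difference in log2(TPM + 1) was -0.16 (limma unadjusted p = 0.317). The inhibitor gene Timp3 had 23.6, 15.6, 20.1, 26.0 and 25.3 CPM in knockout libraries, against 22.9, 14.8, 29.5, 30.3 and 28.4 CPM in wild type libraries. Its gene body overlaps that of Syn3 on the opposite strand, and the strand setting of the counting is not stated, so its counts are uncertain to that extent. Timp2 was at 10.9 ± 2.35 CPM in knockout and 12 ± 1.46 CPM in wild type libraries. Timp1, the inhibitor most often induced in fibrosis, was not tested, with counts of 7, 8, 6, 35 and 4 in knockout libraries and 9, 5, 16, 39 and 12 in wild type libraries. Its high counts fell in replicate 4 of each genotype, and it too overlaps a synapsin gene, Syn1, on the other strand.

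Of the signals, Hgf, the stellate cell growth factor for hepatocytes, had 2.94, 2.60, 1.51, 2.62 and 1.59 CPM in knockout libraries, against 1.02, 1.29, 7.29, 4.96 and 5.58 CPM in wild type libraries. The wild type libraries fell into a low pair below every knockout and 3 libraries above every knockout. The log2 fold change was -0.85 ± 0.47 (edgeR unadjusted p = 0.090, adjusted p = 1.0). Pdgfrb, the PDGF receptor of stellate cells, had 5.30, 4.75, 5.63, 7.27 and 5.19 CPM in knockout libraries, against 5.24, 3.83, 7.49, 8.61 and 8.34 CPM in wild type libraries, with the same 3 wild type libraries on top. Tgfb1, the cytokine that drives collagen genes, had 12.2, 8.22, 9.78, 14.2 and 12.9 CPM in knockout libraries, against 10.7, 8.55, 12.3, 15.6 and 11.3 CPM in wild type libraries. Its log2 fold change was -0.03 ± 0.18, with a 95% interval from -0.42 to 0.37 and a sign that changed in 6 of 22 alternatives.

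The 4 genes that mark the stellate cell itself did not share one pattern. Acta2 had 3.44, 1.64, 1.62, 11.1 and 4.03 CPM in knockout libraries, against 12.7, 1.97, 4.0, 4.54 and 3.36 CPM in wild type libraries. It was high in knockout replicate 4 and wild type replicate 1, and the second of these was low for Col1a1 and Col3a1. Myh11, the myosin of vascular smooth muscle, was highest in the same libraries, at 5.99 CPM in knockout replicate 4 and 3.86 CPM in wild type replicate 1, against 0.913 to 3.23 CPM in the other 4 knockouts and 1.24 to 2.91 CPM in the other 4 wild types. The part of vessel wall in the Acta2 values was not tested. The log2 fold change of Acta2 was -0.28 ± 0.56 (edgeR adjusted p = 1.0), -0.98 without knockout replicate 4 and 0.32 without wild type replicate 1.

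Lrat, which makes the retinyl esters of quiescent stellate cells, had 11.0, 15.1, 10.5, 11.5 and 12.4 CPM in knockout libraries, against 9.55, 14.4, 15.4, 11.6 and 15.2 CPM in wild type libraries. In CPM, neither the low collagen libraries nor the high ones stood apart for Lrat (log2 fold change -0.13 ± 0.16, 95% interval from -0.47 to 0.21). On the deposited TPM values, wild type replicates 1 and 2 (1.55 and 2.07 TPM) were below wild type replicates 3, 4 and 5 (3.02, 2.54 and 3.35 TPM). Knockout libraries ran from 2.25 to 2.59 TPM. Des, the intermediate filament desmin, had 2.90, 3.74, 4.58, 3.30 and 5.11 CPM in knockout libraries, against 5.68, 4.44, 3.54, 3.07 and 3.60 CPM in wild type libraries, and its log2 fold change of -0.05 ± 0.21 changed sign in 8 of 22 alternatives. Reln, which encodes reelin and marks stellate cells in liver, had 37.2, 30.4, 28.1, 32.4 and 29.1 CPM in knockout libraries, against 27.2, 29.2, 48.4, 37.1 and 58.3 CPM in wild type libraries. Wild type replicates 3 and 5 were above every knockout (log2 fold change -0.35 ± 0.20, edgeR unadjusted p = 0.097, adjusted p = 1.0).

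Levels of different genes can be set side by side only per gene length, for which the deposited TPM values were used. Fn1 was the most abundant at 221 TPM over the 10 libraries, followed by Col18a1 (132 TPM), Ecm1 (83.5 TPM) and Dcn (69.5 TPM). Together these 4 made up 73.1 ± 2.14% of the TPM of the 38 genes in knockout and 71.9 ± 3.44% in wild type libraries. Only 9 of the 38 exceeded a mean of 10 TPM, and 9 were below 1 TPM, with Lox lowest at 0.102 TPM. In the order of mean TPM, 6 of 37 neighbouring pairs differed by more than their SD over the 10 libraries, so that most ranks next to each other are not distinct.

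**Figure D4:**
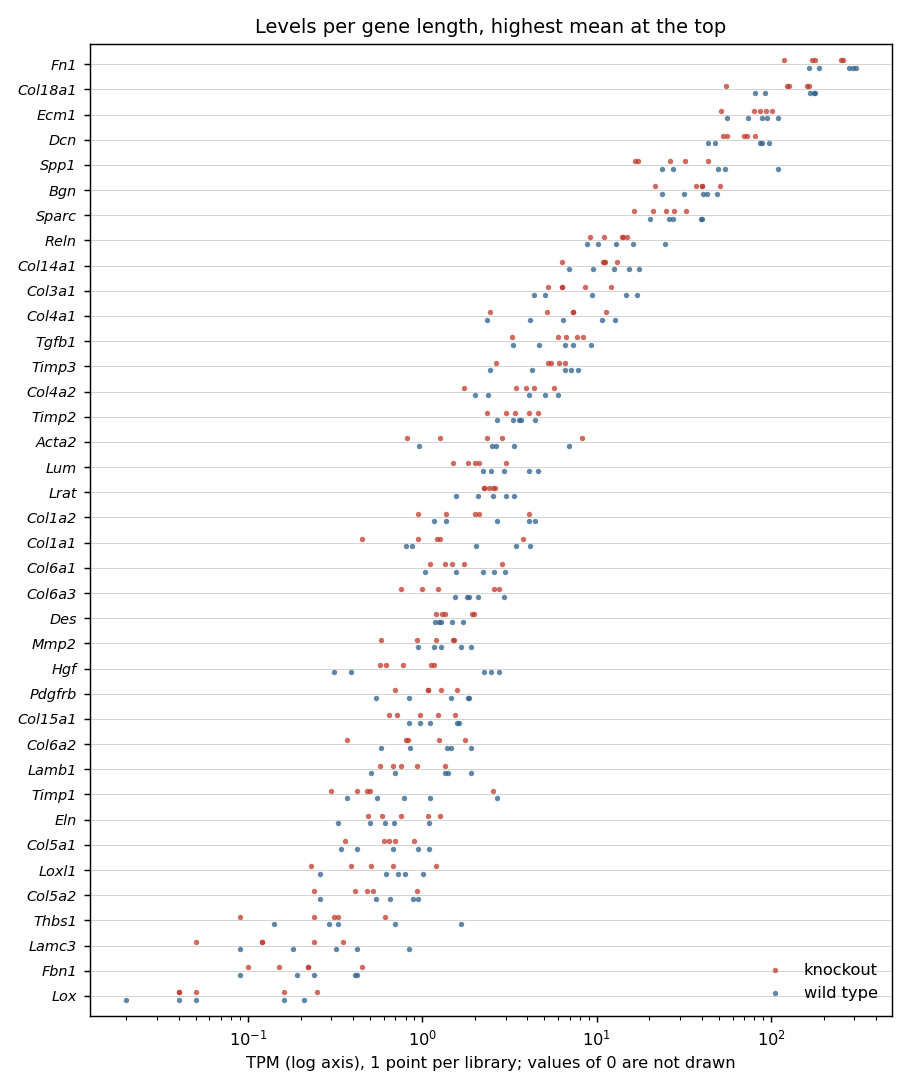
TPM of each gene in each library (horizontal log axis, 1 point per library, knockout red above and wild type blue below), ordered by mean TPM. Fn1 (221 TPM) is at the top and Lox (0.102 TPM) at the bottom, and most neighbours overlap.

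Col18a1 alone held 76.0 ± 3.87% of the TPM of the 13 collagen chains in knockout and 75.5 ± 3.71% in wild type libraries. Without it the 12 other chains summed to 38.8 ± 14.1 TPM in knockout and 46.4 ± 21 TPM in wild type libraries. Col1a1, Col1a2 and Col3a1 made up 29.1 ± 5.25% of that sum in knockout and 30.9 ± 4.46% in wild type libraries, and Col14a1 27.9 ± 3.98% and 27.8 ± 3.92%. Type I collagen is assembled from 2 alpha 1 chains and 1 alpha 2 chain, and the ratio of Col1a1 to Col1a2 was 0.576, 0.479, 0.630, 0.926 and 0.686 in knockout libraries, against 0.635, 0.692, 0.758, 0.934 and 0.837 in wild type libraries. The transcript ratio was thus below 1 in all 10 libraries, and highest in replicate 4 of each genotype. The ratio of Col4a1 to Col4a2 was 1.70 ± 0.347 in knockout and 1.74 ± 0.407 in wild type libraries.

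Promoters were read for what the genes share in sequence. RefSeq windows (GRCm38.p6) were at hand for 25 of the 38 genes (29 windows), and the 250 bases before each start were searched on both strands. The SMAD box (CAGACA), a core of the sites through which TGF-beta acts, was in 27.6% of the 29 windows and in 17.1% of all 32851 windows. The 8 genes that held it were Acta2, Col18a1, Col1a2, Col3a1, Col5a1, Ecm1, Sparc and Spp1. The GC box (GGGCGG) was in 58.6% of the 29 windows, against 32.7% of all windows, and the CCAAT box (CCAAT) in 31.0%, against 33.8%. The TATA box (TATAAA) was in 10.3% (12.4% of all windows), the AP-1 site (TGACTCA) in 6.9% (4.46%) and the CACGTG form of the E-box in 3.4% (6.02%). The CArG box was in 0, against 1.47% of all windows. These are matches of letters, with no binding measured.

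The windows of 4 genes with contrasting patterns, none of which overlaps an annotated exon, are printed 5′ to 3′ as the 250 bases before the start. In CPM, Col3a1, Spp1 and Timp1 were highest in replicate 4 of each genotype. Lrat was highest in knockout replicate 2 and wild type replicate 3, and spanned 1.62-fold over all libraries. Capitals mark the motifs named above. Col3a1 is shown at chr1:45311288-45311537 on the plus strand, Spp1 at chr5:104434861-104435110 on the plus strand, Timp1 at chrX:20869916-20870165 on the plus strand and Lrat at chr3:82903975-82904224 on the minus strand.
Col3a1: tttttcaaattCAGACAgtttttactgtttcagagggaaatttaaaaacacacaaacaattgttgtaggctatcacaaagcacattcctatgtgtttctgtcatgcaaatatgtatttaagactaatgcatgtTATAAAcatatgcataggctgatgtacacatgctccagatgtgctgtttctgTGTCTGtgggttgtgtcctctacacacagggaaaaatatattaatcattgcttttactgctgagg
Spp1: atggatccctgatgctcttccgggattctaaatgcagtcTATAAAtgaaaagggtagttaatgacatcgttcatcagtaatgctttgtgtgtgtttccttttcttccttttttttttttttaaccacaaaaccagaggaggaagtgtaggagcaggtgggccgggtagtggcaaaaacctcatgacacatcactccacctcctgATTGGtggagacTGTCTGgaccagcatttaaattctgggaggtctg
Timp1: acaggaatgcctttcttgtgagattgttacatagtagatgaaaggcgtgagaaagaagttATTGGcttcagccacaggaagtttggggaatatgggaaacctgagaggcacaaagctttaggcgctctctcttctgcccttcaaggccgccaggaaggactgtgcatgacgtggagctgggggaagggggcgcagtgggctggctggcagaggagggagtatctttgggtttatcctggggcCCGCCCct
Lrat: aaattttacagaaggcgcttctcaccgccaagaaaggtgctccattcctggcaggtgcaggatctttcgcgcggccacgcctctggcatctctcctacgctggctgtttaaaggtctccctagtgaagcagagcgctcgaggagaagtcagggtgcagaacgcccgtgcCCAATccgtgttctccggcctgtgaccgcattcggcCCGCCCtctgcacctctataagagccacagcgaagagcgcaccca
The Col3a1 window holds SMAD boxes at 239 to 234 and at 65 to 60 bases before the start, and a TATA box at 117 to 112. That of Spp1 holds a TATA box at 211 to 206, a CCAAT box at 46 to 42 and a SMAD box at 34 to 29. Those of Timp1 and Lrat hold a CCAAT box and a GC box each and no SMAD box.

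Other genes of the matrix were counted from lists of 199 genes outside the 38, of which 160 were tested. None passed the adjusted edgeR test (0 by DESeq2 and by limma too), 7 had an unadjusted p under 0.05 (4.82% of all tested genes did), and 127 (79.4%) had a negative log2 fold change, with a median of -0.15, where 55.3% of all tested genes were negative. Of 36 tested proteoglycans and glycoproteins 33 were negative (median -0.23), and the smallest p belonged to Smoc2, a relative of Sparc (-0.53 ± 0.16, edgeR unadjusted p = 0.0066, adjusted p = 0.554), whose genotypes did not overlap (1.05% of all tested genes showed none). Of 9 other collagens 7 were negative, with Col27a1 at -0.59 ± 0.27, and of 14 laminins and basement membrane genes 10 were, with Agrn at 0.24 ± 0.15. Of 24 collagen processing enzymes 18 were negative (median -0.09), with Pcolce, the enhancer of procollagen cleavage, at -0.28 ± 0.13, and of 20 turnover genes 18 were, with Mmp19 at -0.31 ± 0.12. Matrix receptors had 17 of 21 negative, with the syndecan gene Sdc2 at -0.28 ± 0.10, and PDGF and HGF signalling 11 of 11 (median -0.21), with Hgfac, the HGF activator, at -0.21 ± 0.12. TGF-beta signalling genes were split, 13 negative of 25, and the smallest p was that of Smad6, an inhibitor in the pathway, at 0.34 ± 0.12 (edgeR adjusted p = 0.774).

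Markers of the liver's cell types outside the 38 genes gave 0 passing genes of 127 tested (0 by DESeq2 and by limma too), with 8 at an unadjusted edgeR p under 0.05 and 104 (81.9%) negative, where all tested genes had 4.82% and 55.3%. Of those 8, 6 were negative, and the bile duct list's Krt23 (0.80 ± 0.31, adjusted p = 0.875) and the stellate cell and fibroblast list's Tpm2 (0.54 ± 0.22, adjusted p = 0.934) were positive. These 2 were named after their values were seen. Stellate cell and fibroblast markers were negative in 26 of 32 (median -0.22), with Tcf21 at -0.39 ± 0.16, and their summed level ran from 348 to 472 CPM in knockout and from 423 to 579 CPM in wild type libraries. Endothelial markers were negative in 21 of 22 (median -0.15), with Emcn at -0.41 ± 0.19. Their summed levels were 518 to 743 CPM in knockout and 508 to 774 CPM in wild type libraries. The defining endothelial marker Stab2 was at 49.1 ± 11.2 CPM in knockout and 50.4 ± 12.7 CPM in wild type libraries (log2 fold change -0.04 ± 0.20). Bile duct markers were negative in 11 of 14 (median -0.43), with Sox9 at -0.62 ± 0.19 (edgeR adjusted p = 0.566) and sums of 33.7 to 58.3 CPM in knockout and 30.2 to 60.0 CPM in wild type libraries. Kupffer cell and macrophage markers were negative in 16 of 22 (median -0.04), with Ccr2 at -0.59 ± 0.40. Their sums were 769 to 962 CPM in knockout and 766 to 989 CPM in wild type libraries. The defining Kupffer cell marker Clec4f was at 126 ± 10.3 CPM in knockout and 128 ± 14.3 CPM in wild type libraries (log2 fold change -0.02 ± 0.11). Lymphocyte and neutrophil markers were negative in 10 of 12 (median -0.35), with Ms4a1, which marks B cells, at -1.04 ± 0.35 (edgeR adjusted p = 0.671) and no overlap.

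Hepatocyte markers were negative in 13 of 15 (median -0.14), with Ttr at -0.29 ± 0.15, and summed to between 87570 and 101900 CPM in knockout and between 97960 and 118500 CPM in wild type libraries. Red cell genes, 5 of 5 negative with Alas2 at -0.25 ± 0.17, ran the other way along the libraries, with sums of 1594 and 1604 CPM in wild type replicates 1 and 2 and of 539 to 777 CPM in wild type replicates 3, 4 and 5. In knockout libraries they summed to between 493 and 1204 CPM. Vascular smooth muscle markers other than Acta2 and Des were negative in 1 of 4 (Smtn at -0.25 ± 0.17), the mesothelial list had 1 tested gene (Krt7, 0.00 ± 0.37) and the adipocyte list 1 (Cfd, -0.18 ± 0.58). The part of these cell types in the values of the 38 genes was not tested.

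**Figure D5:**
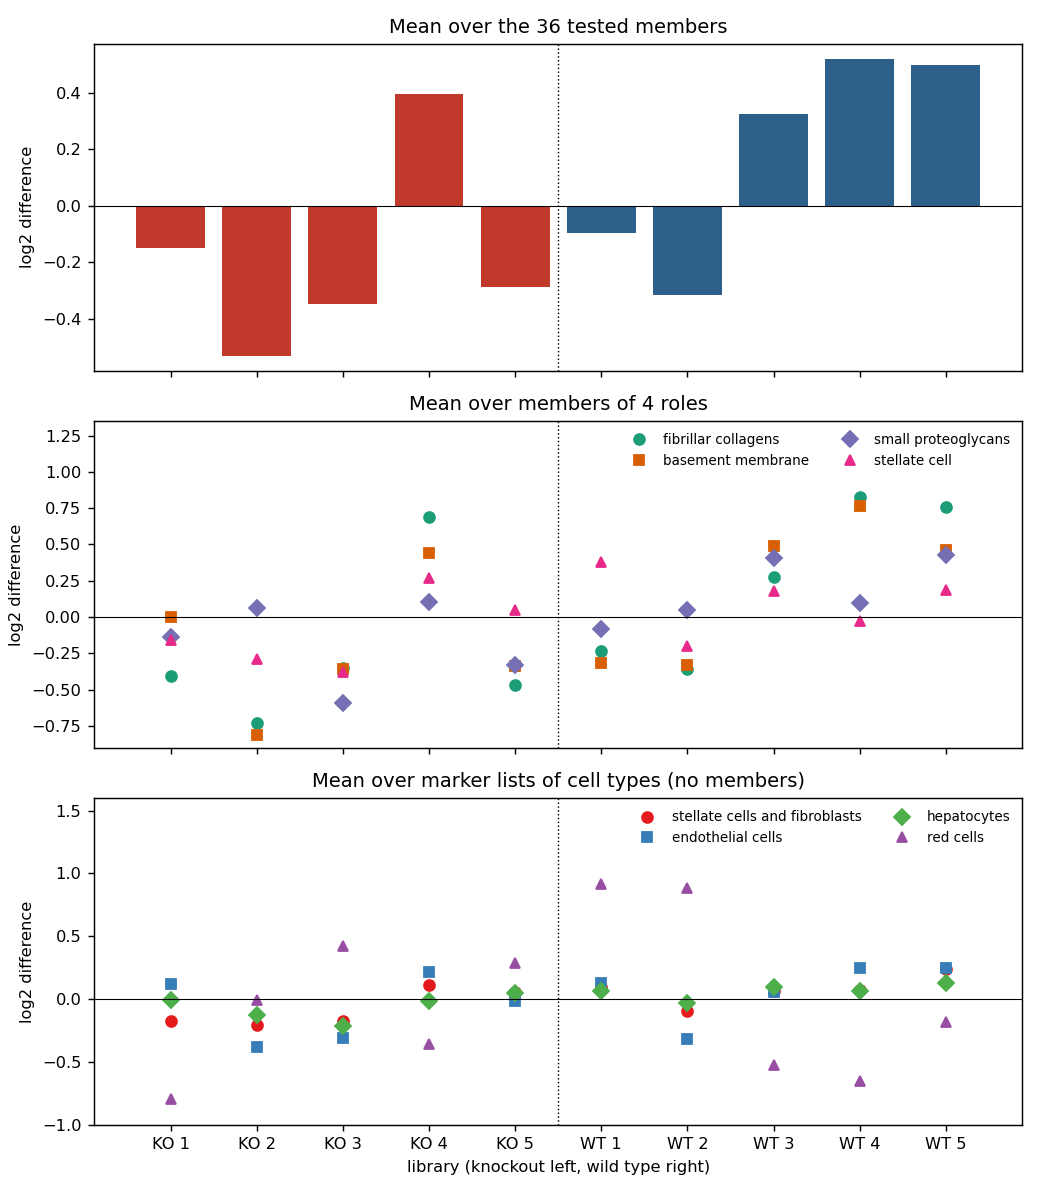
Mean log2 CPM of a group of genes minus each gene's own mean, per library (knockout left, wild type right), for the 36 tested genes (top), for 4 of their roles (middle) and for marker lists of cell types (bottom). Fibrillar collagens are at 0.69 in knockout replicate 4 and between 0.27 and 0.83 in wild type replicates 3, 4 and 5, and red cell genes are highest in wild type replicates 1 and 2, at 0.91 and 0.88.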

How the data were processed

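Liver RNA of 10 samples was analysed, grouped by the genotype label and numbered by sample title. The table names wild type columns with another abbreviation, matched by number. Per the submitters' processing notes, fastp, HISAT and RSEM were used on GRCm38.p5. No version, annotation or strand setting is given in the sources used. The authors deposited estimated (expected) counts and TPM values per library, gene length, and their own log2 fold change and p-value, for which adjustment is not stated. The expected counts were rounded before use (7.68% had a fractional part as deposited). The 4 rows without a gene were left out. Coordinates and overlaps come from GENCODE M21 (GRCm38), promoters from RefSeq (GRCm38.p6).

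filterByExpr with default settings kept 13619 genes, and TMM factors scaled the libraries. Genotype was tested in R 4.3.3 with the robust quasi-likelihood F test of edgeR 4.0.16, with Benjamini-Hochberg adjustment over all tested genes and a threshold of 0.05. Standard errors and 95% intervals were derived from its F statistic. It was tested on simulated data. Alternatives used other scalings and filters, DESeq2 1.42.0, limma 3.58.1 (limma-voom with library weights), TPM on a log2 scale, the replicate block and each library left out. The surrogate variable (sva 3.50.0) was added after seeing the data. The members and lists were chosen with earlier results of these data known. Values in every library are given for the 2 genes of each role with the smallest p and for 9 genes that define fibrillar matrix and stellate cell state, and each other list names its smallest p. Replicates of a genotype differed by more than counting error in each pair (chi-square over its degrees of freedom at least 29.79).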

Additional observations from a re-analysis of the deposited data

Results flagged for a closer look

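Each gene was checked in each genotype for a single library standing apart from the other 4, by Dixon's ratio of the gap to the range, with 0.71 as the critical value for 5 samples. This ratio was exceeded in 7 of 76 groups. Chance gives about 1 in 20 for independent, normally distributed values. The CPM values were not put on a log scale and the genes share their libraries, so the 7 cannot be weighed against that rate. Of these, 6 were knockout replicate 4 standing high. They were Col1a1 (19.1 CPM, ratio 0.793), Col3a1 (41.7 CPM, ratio 0.826), Col6a1 (9.81 CPM, ratio 0.850), Fbn1 (3.90 CPM, ratio 0.806), Timp1 (1.31 CPM, ratio 0.818) and Acta2 (11.1 CPM, ratio 0.745). The other 4 knockout libraries lay between 3.38 and 6.63 CPM for Col1a1, between 19.7 and 23.5 CPM for Col3a1 and between 4.97 and 5.70 CPM for Col6a1. The remaining one was wild type replicate 1 for Acta2, at 12.7 CPM against 1.97 to 4.54 CPM in the other wild type libraries (ratio 0.760).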

How the results depend on the processing

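Under all 22 alternatives 0 of the tested genes described here passed the adjusted test (smallest adjusted p = 0.14, Col14a1 with a surrogate variable), and 0 genes of the other matrix or cell type lists did. These fits tested 36 to 38 of the genes. The number of negative log2 fold changes stayed between 32 and 37, and the median of the tested genes between -0.54 and -0.15. The number with an unadjusted p under 0.05, 8 in the main test, was 2 with library totals alone and 2 on either TPM scale. It was 11 with the replicate block, 18 with a surrogate variable and 19 with limma-voom using library weights. Over all genes that share, 4.82% in the main test, was 5.35% with library totals and 3.66% and 3.58% on the TPM scales. It was 5.22% with the block, 7.94% with a surrogate variable and 9.46% with limma-voom. The limma-voom fit weighted wild type replicates 1 and 2 at 0.449 and 0.523 and knockout replicate 2 at 0.509. Its other weights ran from 1.059 (knockout replicate 4) to 1.835 (wild type replicate 5). With knockout replicates 1 to 5 left out in turn, the number among the genes described here was 7, 5, 4, 16 and 4. All genes of those fits gave 4.88%, 6.34%, 3.29%, 5.38% and 4.0%. With wild type replicates 1 to 5 left out in turn, the number was 12, 14, 5, 4 and 4. All genes of those fits gave 6.46%, 4.85%, 4.30%, 4.39% and 4.29%. The scale log2(TPM + 0.1) moved the median of all genes from -0.02 to 0.08. Over all genes 18 passed, against 93 with DESeq2, 29 with a surrogate variable, 11 on log2(TPM + 1), 7 on log2(TPM + 0.1) and 6 to 21 with 1 library left out. The correlations of same-numbered deviations were -0.41, 0.39, 0.00, 0.43 and -0.18. They are too few and too mixed to tell whether equal numbers pair the libraries. With the replicate block 26 passed over all genes and 0 here. Signs turned for Bgn (0.009 on either TPM scale), Eln (-0.02 with limma-voom), Tgfb1 (0.057 with library totals, 0.047 and 0.055 on the TPM scales) and Des (0.071 with library totals, 0.079 with limma-voom, 0.092 and 0.14 on the TPM scales, 0.01 with a surrogate variable). With 1 library left out the log2 fold changes ran from -0.49 to 0.009 for Col4a1, -0.26 to 0.035 for Col4a2, -0.10 to 0.28 for Eln, -0.12 to 0.10 for Tgfb1, -0.98 to 0.32 for Acta2 and -0.16 to 0.10 for Des. The cause was not tested. Lox and Timp1 were too low to test in the main fit, but entered some alternatives, such as the one without a filter on low counts.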
